A study of Nicotiana tabacum with 6 samples.

Results

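Cytosolic class I small heat shock proteins (sHSP CI) were followed in tobacco through 6 genes, gene_26623, gene_79900, gene_2804, gene_37733, gene_79575 and gene_25798, of 31766 gene identifiers in the deposited tables. The 6 genes were taken by identifier, and their values were the FPKM (fragments per kilobase of transcript, scaled to the mapped fragments of the library) of each library, which already correct for transcript length. The tables describe all 6 as HSP20 family proteins of class I, with predicted masses of 16.9 kDa (gene_25798), 17.6 kDa (gene_26623 and gene_37733), 17.8 kDa (gene_79575) and 18.2 kDa (gene_2804 and gene_79900). For gene_79900 and gene_2804 the class stands in the seed rows, and their seedling rows name only the HSP20-like superfamily. A search of the descriptions found 2 further class I genes outside the set, gene_66148 (18.2 kDa) and gene_6785 (17.3 kDa), which are given beside it. None of the descriptions names an organelle.

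Small heat shock proteins are chaperones that assemble into large oligomers and hold unfolding proteins in a soluble state until ATP-dependent chaperones such as HSP70 and HSP101 refold them. Class I proteins lie in the cytosol, and in plants they are known both for their induction by heat and for their accumulation in maturing seeds without heat. Heat stress transcription factors (HSFs) bind heat shock elements in the promoters of their genes. In sunflower the seed-specific HSFA9 (A9) is a known activator of sHSP genes. Its partner HSFA4a (A4a) is described by the study as a coactivator that depends on A9.

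The study asked how A9 and A4a act on transcripts in seeds and in seedlings. DS10:A9 seeds carried sunflower A9 under DS10, a promoter active in seeds, 35S:A9 seedlings carried A9 under the constitutive 35S promoter, and DS10:A4a seeds carried sunflower A4a under DS10. Each was set against nontransgenic (NT) material of the same age from sibling lines, which had lost the transgene by segregation: NT seeds for DS10:A9, NT seedlings for 35S:A9, and other NT seeds for DS10:A4a. All plants were of the variety Xanthi, and no heat treatment is named in the labels. Seeds were taken after 1 day of imbibition, seedlings at 3 weeks. Per the study's methods, seeds were imbibed in the dark, and seedlings grew under a photoperiod of light and dark. Imbibed NT seeds also contain the plant's own seed HSFs. Each of the 6 libraries was made from an equimolecular mixture of 4 RNA samples of several pairs of single-integration lines and their siblings, so that the lines could not be told apart. Each comparison thus set 1 T library against 1 NT library, with no replicate of either. Only NT seeds had 2 libraries, 1 in each seed comparison, which are set against each other below.

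The comparison of 35S:A9 seedlings with DS10:A9 seeds joins differences in promoter, organ, age and light, which cannot be told apart. Organ, age and light also differ together between NT seeds and NT seedlings. Genes that reached 10 FPKM in a library of the comparison (where both A9 comparisons are meant, in a library of each) are called abundant below. The depth was recovered from the steps between low FPKM values and came to about 11300000 to 16400000 fragments per library. Intervals are exact binomial (Clopper-Pearson) 95% intervals on the ratio of recovered fragments. They cover counting error between a pair of libraries only. The tables list only genes past a threshold on the log2 fold of T (transgenic) over NT, 0.6 for genes listed as higher and -0.5 for genes listed as lower. A positive fold was therefore a condition of entry for every gene of the A9up table, and a gene that did not pass was not analysed here. The log2 folds taken here for A9up genes went down to 0.59, slightly below 0.6. Of the 4755 A9up identifiers, the 4753 with values in both A9 comparisons were used and are called A9up genes. In a check of the organ labels, 18 A9up genes described as chlorophyll-binding, Rubisco small subunit or photosystem proteins had 41.1 FPKM in all in NT seeds, with 9 genes at 0, against 2616 FPKM in NT seedlings, with 1 gene at 0. No A9up gene was found under an oleosin, late embryogenesis abundant or storage protein description. The seed label was therefore checked with the green tissue genes alone. As seeds were in the dark and seedlings under a photoperiod, this check cannot tell organ from light. The mRNA of the sunflower transgenes was not analysed here. As these are whole seeds and seedlings, more RNA per cell and more cells with that RNA cannot be told apart.

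Of the 6 genes, 3 were listed in the A9up table: gene_26623, gene_79900 and gene_2804. All were more abundant with A9 in both organs, by 1.88-fold to 4.44-fold in seeds and by 45.3-fold to 234-fold in seedlings. The 18.2 kDa gene gene_79900 had 464.9 FPKM in DS10:A9 seeds, against 232.0 FPKM in NT seeds. In seedlings gene_79900 had 948.0 FPKM with 35S:A9, against 6.73 FPKM in NT seedlings. It was the A9up gene with the highest level in NT seeds and held rank 2 in DS10:A9 seeds and rank 3 in 35S:A9 seedlings, while in NT seedlings it held rank 248.

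The second 18.2 kDa gene, gene_2804, had 278.9 FPKM in DS10:A9 seeds, against 148.1 FPKM in NT seeds. It reached 595.3 FPKM in 35S:A9 seedlings, against 2.54 FPKM in NT seedlings, a level that rests on 29 fragments. The 17.6 kDa gene gene_26623 had 376.0 FPKM in DS10:A9 seeds, against 84.8 FPKM in NT seeds. Its seedling levels were lower, with 88.4 FPKM in 35S:A9 seedlings, against 1.95 FPKM in NT seedlings, which rests on 16 fragments. So the gene that stood lowest in NT seeds was above gene_2804 in DS10:A9 seeds, and it had the lowest value of the 3 in both seedling libraries.

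**Figure D1:**
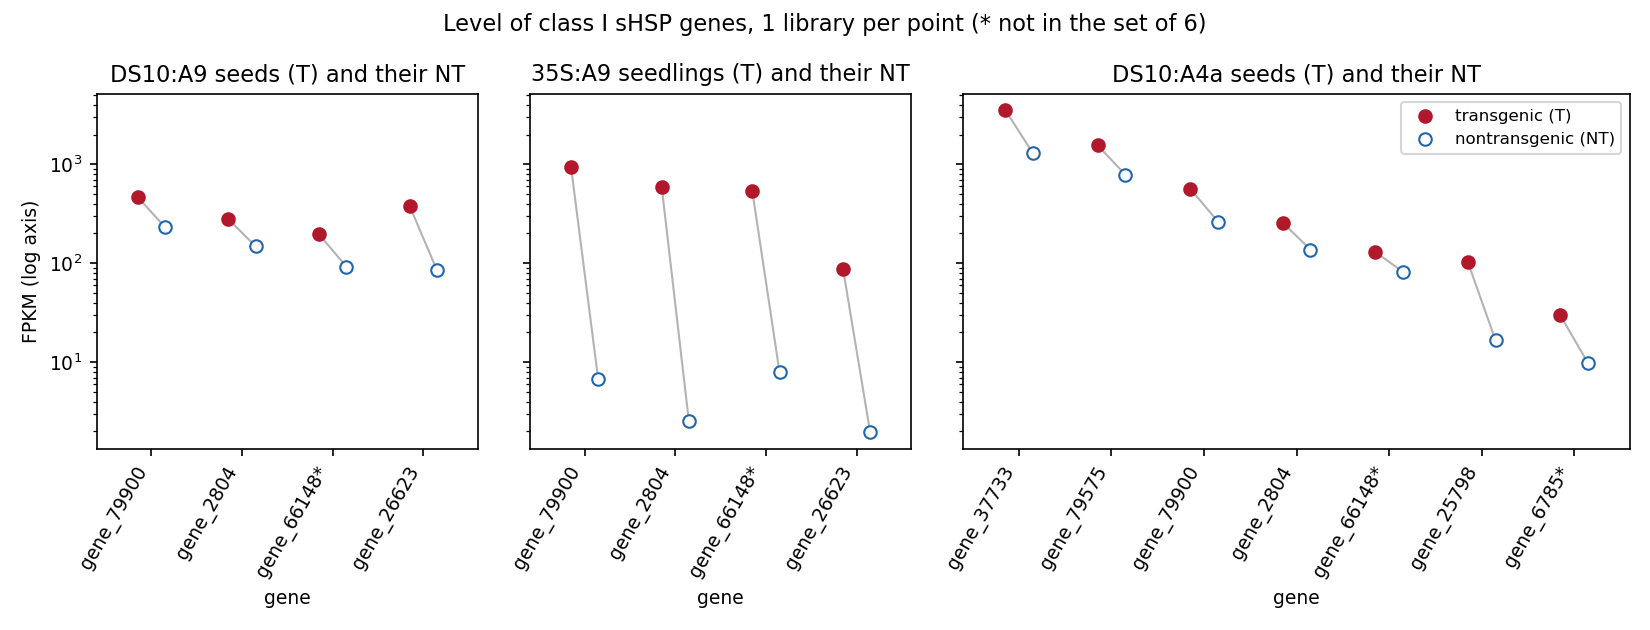
FPKM (vertical log axis) of each class I gene in the 3 comparisons, with the T library as a filled point left of its NT library as an open point. Asterisks mark gene_66148 and gene_6785, which are outside the set of 6. The widest gaps are those of the seedlings, where NT levels lay between 1.95 and 7.93 FPKM.

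In DS10:A9 seeds the log2 fold over NT seeds was 2.15 for gene_26623 (interval 2.02 to 2.28), from 2633 fragments in DS10:A9 seeds and 574 in NT seeds. The fold of gene_79900 was 1.00 (0.92 to 1.09) and that of gene_2804 was 0.91 (0.82 to 1.01), with overlapping intervals that both lay below that of gene_26623. Over all abundant A9up genes the median was 0.85 in seeds, so the pair of 18.2 kDa genes lay near it. By fold gene_26623 held rank 9, gene_79900 rank 48 and gene_2804 rank 61 among these 132 genes.

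In 35S:A9 seedlings the order was different. The log2 fold was 7.87 for gene_2804 (7.33 to 8.43), 7.14 for gene_79900 (6.76 to 7.54) and 5.50 for gene_26623 (4.80 to 6.32), where the median of abundant A9up genes was 1.16. Among the 393 of these genes with a fold, gene_2804 held rank 4, gene_79900 rank 6 and gene_26623 rank 11. The gene with the largest fold in seeds thus had the smallest fold of the 3 in seedlings. Its seedling interval lay below those of gene_2804 and gene_79900. It overlapped that of gene_66148 (6.08, 5.75 to 6.42), the 18.2 kDa gene outside the set.

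Counting intervals lay above 0 in both organs for 3 of the 3 listed members, against 14.6% of all A9up genes. Among the 71 abundant A9up genes it was 100%, so that the count does not set the class I genes apart from other abundant A9up genes. The summed FPKM of the 3 genes was 1120 in DS10:A9 seeds, against 464.9 in NT seeds. In 35S:A9 seedlings it was 1632, against 11.2 in NT seedlings.

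**Figure D2:**
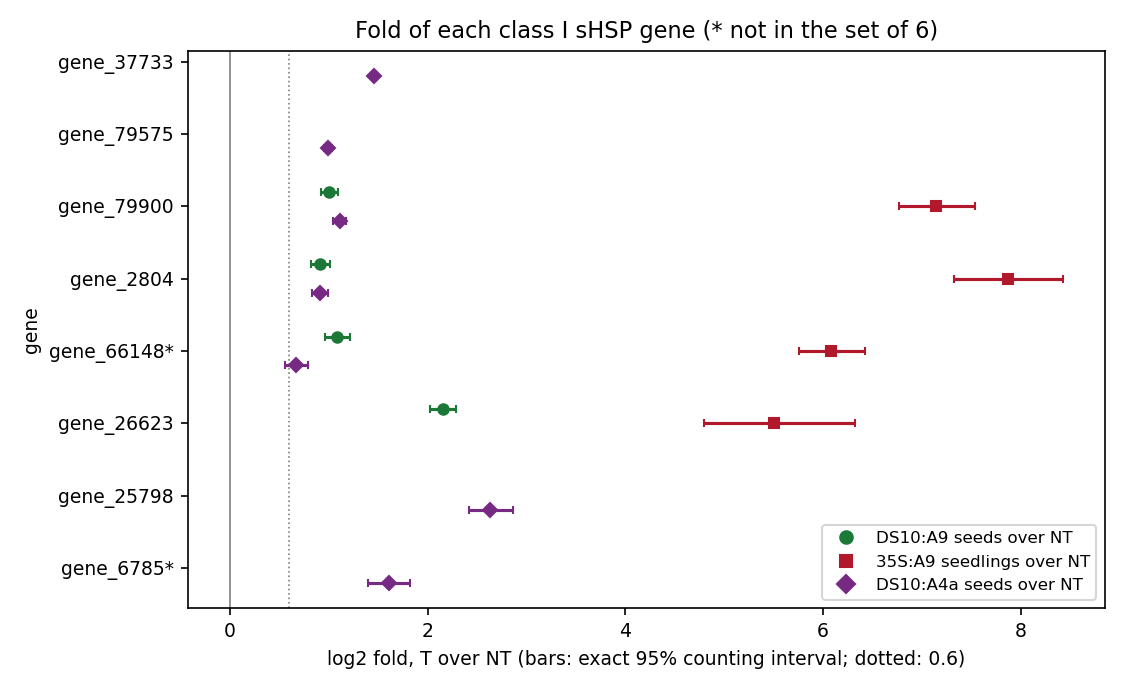
Log2 fold of T over NT (horizontal axis) for each class I gene, with exact 95% counting intervals as bars. The dotted line is the threshold of 0.6 for a gene to be listed as higher. In seedlings the 4 listed genes lie between 5.50 and 7.87, and all seed values lie between 0.67 and 2.63.

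The basal levels, those of NT plants, were compared next. All 3 listed members were more abundant in NT seeds than in NT seedlings. The ratio was 58.3-fold for gene_2804 (log2 5.87, 5.31 to 6.43), 43.5-fold for gene_26623 (5.44, 4.73 to 6.26) and 34.5-fold for gene_79900 (5.11, 4.73 to 5.52), and these intervals overlap one another. Intervals above 0 were found for 9.26% of all A9up genes and for 53.5% of the abundant ones, so a higher basal level in seeds was shared by many abundant A9up genes. The other NT seed library, that of the DS10:A4a comparison, gave log2 ratios of 5.76 for gene_2804 and 5.29 for gene_79900.

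Within NT seeds gene_79900 exceeded gene_2804 by 1.57-fold (1.46 to 1.68). Of the 2 lowest, gene_66148 with 92.4 FPKM and gene_26623 with 84.8 FPKM, the ratio was 1.09 with an interval of 0.97 to 1.22, so their order was not resolved at this depth. In NT seedlings gene_66148 and gene_79900 (ratio 1.18, 0.82 to 1.69) and gene_2804 and gene_26623 (ratio 1.30, 0.70 to 2.62) were likewise not resolved. The order in NT seedlings therefore holds only between these pairs.

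The levels reached with A9 were then set side by side. The 35S:A9 seedlings held more gene_2804 than DS10:A9 seeds (log2 ratio 1.09, 1.03 to 1.16) and more gene_79900 (1.03, 0.97 to 1.09), but less gene_26623 (-2.09, -2.21 to -1.97). The first pair stood about 2.13-fold and 2.04-fold higher in 35S:A9 seedlings, and gene_26623 reached 0.24 of its level in DS10:A9 seeds. Even so, with 88.4 FPKM in 35S:A9 seedlings and 84.8 FPKM in NT seeds, gene_26623 was close to its basal seed level.

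The log2 fold in 35S:A9 seedlings exceeded that in DS10:A9 seeds by 6.96 for gene_2804 (6.42 to 7.49), by 6.14 for gene_79900 (5.75 to 6.52) and by 3.35 for gene_26623 (2.63 to 4.08). Intervals of this difference, taken from a normal approximation on the log fragments, lay above 0 for 3.18% of all A9up genes and for 59.2% of the abundant ones. For gene_79900 and gene_2804 the NT values carry most of the difference. Their T levels differed by about 1 on the log2 scale between the organs and their NT levels by over 5. For gene_26623 the NT levels differed by 5.44, more than the difference of its folds. Its T level had a log2 ratio of -2.09, seedlings over seeds.

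In the DS10:A4a comparison 5 of the 6 genes were listed, all as higher and none as lower. Of all genes listed in this comparison 46.0% were higher, and 49.0% of the abundant ones. The counting interval lay above 0 for each of the 5, against 8.92% of all listed genes and 48.2% of the abundant ones. As 477 of the 485 abundant genes listed as higher had such an interval, this does not set the 5 genes apart from other abundant genes listed as higher. The sixth, gene_26623, was not in the A4a tables, and no fold is given for it.

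The most abundant member was gene_37733, a 17.6 kDa gene, with 3569 FPKM in DS10:A4a seeds, against 1301 FPKM in NT seeds. It held rank 2 of the 13618 genes listed as higher, in both libraries, and its log2 fold was 1.46 (1.43 to 1.48). The 17.8 kDa gene gene_79575 had 1561 FPKM in DS10:A4a seeds, against 786.0 FPKM in NT seeds, a log2 fold of 0.99 (0.95 to 1.03). These 2 genes held ranks 2 and 4 in DS10:A4a seeds and had the highest class I levels found in the tables. Their levels in seedlings were not analysed here.

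The 16.9 kDa gene gene_25798 was the least abundant member and had the largest fold. It had 103.4 FPKM in DS10:A4a seeds, against 16.7 FPKM in NT seeds, with a log2 fold of 2.63 (2.42 to 2.86) or 6.20-fold, which was rank 18 of the 485 abundant genes listed as higher. The pair of 18.2 kDa genes had smaller folds. For gene_79900 the levels were 568.7 FPKM in DS10:A4a seeds, against 264.0 FPKM in NT seeds, with a log2 fold of 1.11 (1.04 to 1.17). For gene_2804 they were 258.2 FPKM in DS10:A4a seeds, against 137.3 FPKM in NT seeds, with a log2 fold of 0.91 (0.83 to 0.99).

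The order of levels was the same in DS10:A4a and in NT seeds, gene_37733 first, then gene_79575, gene_79900, gene_2804 and gene_25798, and neighbouring genes differed beyond counting error in both libraries. The folds did not follow this order. The interval of gene_25798 lay above all others, and that of gene_37733 above those of gene_79900, gene_79575 and gene_2804. The summed FPKM of the 5 members was 6060 in DS10:A4a seeds, against 2505 in NT seeds. Of this sum gene_37733 made up 58.9% in DS10:A4a seeds, against 51.9% in NT seeds.

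**Figure D3:**
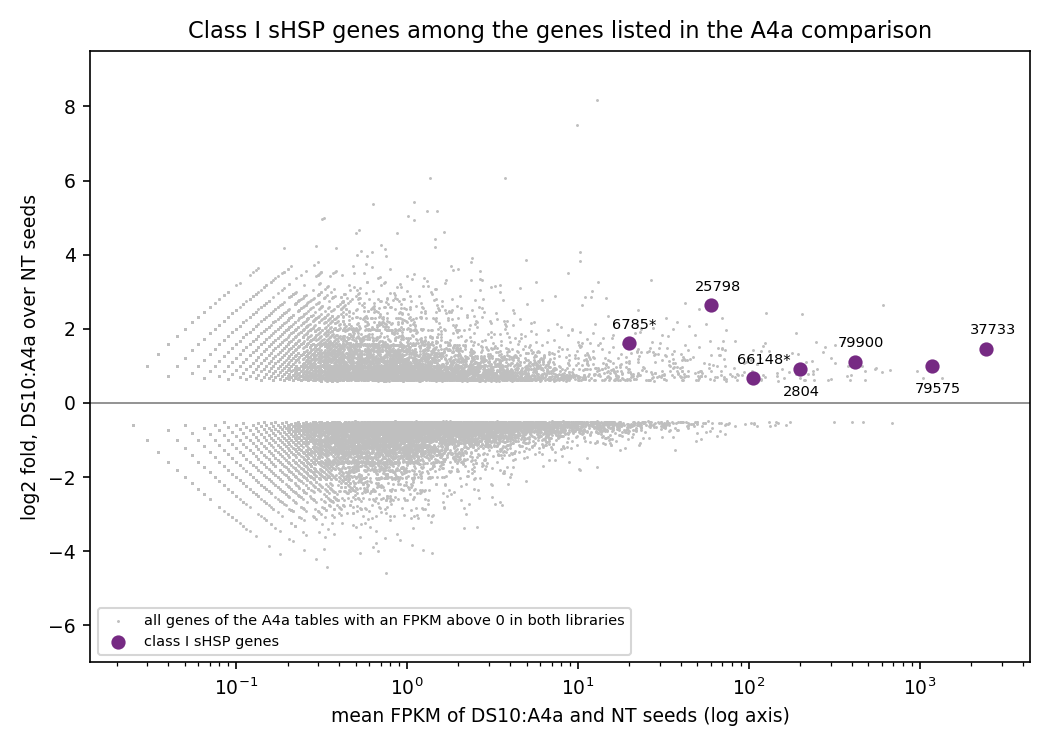
Log2 fold of DS10:A4a over NT seeds against the mean FPKM of both libraries (log axis) for the 20595 listed genes with an FPKM above 0 in both, with class I genes as large points (numbers are gene identifiers, asterisks mark genes outside the set of 6). The empty band around 0 is the range between the thresholds, whose genes are not listed. The class I points all lie above it, from 0.67 to 2.63, and gene_37733 and gene_79575 lie at the right edge of the plot.

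For the genes listed in all comparisons the effects of A9 and of A4a in seeds could be set beside each other. The log2 fold with DS10:A4a less that with DS10:A9 was -0.0024 for gene_2804, with an interval of -0.13 to 0.12, and 0.10 for gene_79900, with an interval of -0.0037 to 0.21. Neither difference was resolved from 0, and the intervals leave room for differences up to their bounds. Both genes had to pass the threshold for listing as higher in each seed comparison, which favours similar folds. Of the other members, gene_26623 had a log2 fold of 2.15 with DS10:A9 and was not in the A4a tables. The members gene_37733, gene_79575 and gene_25798 were not in the A9up table. No such difference can be given for any of them. The 2 NT seed libraries themselves differed by -0.11 for gene_2804 (-0.21 to -0.01) and by 0.19 for gene_79900 (0.10 to 0.28), as log2 of the NT seeds of DS10:A4a over those of DS10:A9. Over the 27 genes at 10 FPKM or above in both, the absolute difference had a median of 0.32 and a 95th percentile of 0.62. Its largest value was 1.12, and 2 of the 27 genes were at or over 0.6. The seed log2 folds of gene_2804 (0.91 in both comparisons) and gene_79900 (1.00 with DS10:A9, 1.11 with DS10:A4a) were below that largest value. These 27 genes had passed the thresholds of both kinds of table, so they are not a sample of all genes.

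The class I gene outside the set that was listed everywhere, gene_66148, shares its 18.2 kDa description with gene_79900 and gene_2804. It had 195.8 FPKM in DS10:A9 seeds, against 92.4 FPKM in NT seeds, and 535.6 FPKM in 35S:A9 seedlings, against 7.93 FPKM in NT seedlings. Its log2 folds were 1.08 for DS10:A9 (0.96 to 1.21), 6.08 for 35S:A9 (5.75 to 6.42) and 0.67 for DS10:A4a (0.55 to 0.79). Its basal ratio of NT seeds over NT seedlings, 11.6-fold, lay below those of the 3 members. Its fold in DS10:A4a seeds was below that in DS10:A9 seeds by 0.41 on the log2 scale (difference -0.41, -0.59 to -0.24), which is beyond counting error. The spread of such a difference between replicates could not be estimated, as no T library had a replicate. The other, gene_6785, was listed with DS10:A4a only, with 29.8 FPKM in DS10:A4a seeds, against 9.77 FPKM in NT seeds, and a log2 fold of 1.61 (1.40 to 1.82).

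The copies with the same description were compared within each library. Tobacco is an allotetraploid, and closely similar copies can exchange reads in the counting, so each ratio below carries that uncertainty. The levels, folds and basal ratios given above for gene_79900, gene_2804 and gene_66148 carry it too, and their counting intervals do not cover it. Whether these copies exchanged reads was not tested. Relative to gene_2804, gene_79900 stood at 1.67 in DS10:A9 seeds, against 1.57 in their NT seeds, at 1.59 in 35S:A9 seedlings, against 2.65 (1.64 to 4.23) in NT seedlings, and at 2.20 in DS10:A4a seeds, against 1.92 in their NT seeds. The ratio of these 2 genes thus stayed between 1.57 and 2.65 in all libraries. For gene_66148 over gene_2804 the values were 0.70 in DS10:A9 seeds, against 0.62 in their NT seeds, 0.90 in 35S:A9 seedlings, against 3.12 (1.98 to 4.89) in NT seedlings, and 0.50 in DS10:A4a seeds, against 0.60 in their NT seeds. In NT seedlings gene_66148 was the more abundant of the pair, and in the other 5 libraries gene_2804 was.

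**Figure D4:**
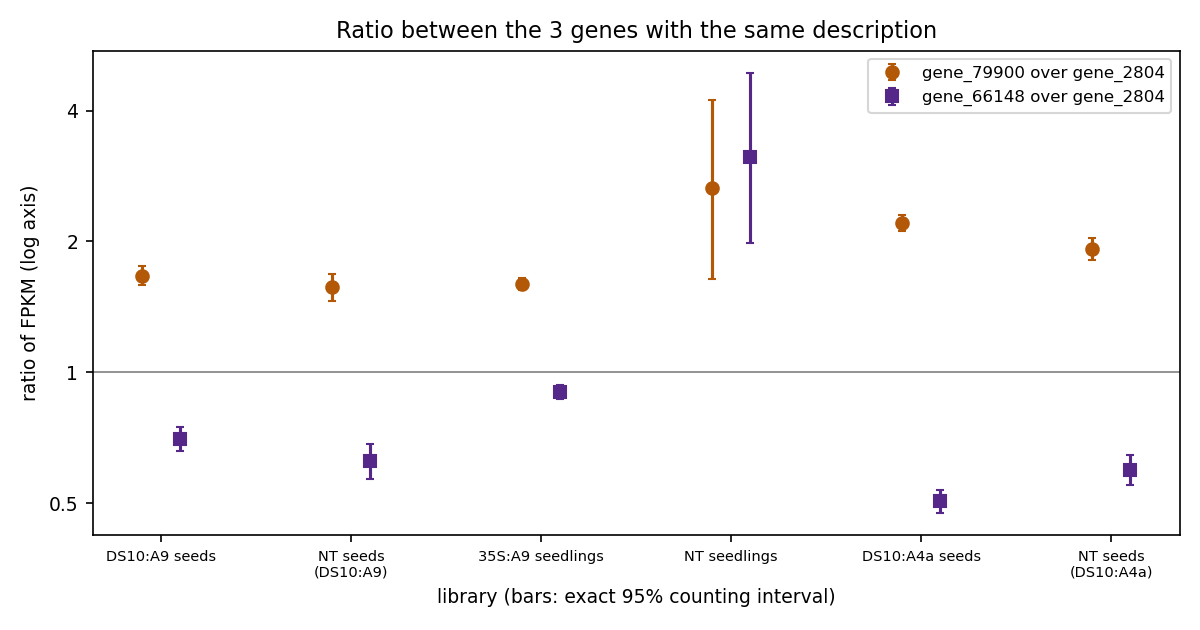
Ratio of the FPKM of gene_79900 (circles) and gene_66148 (squares) to that of gene_2804 on a vertical log axis in each of the 6 libraries, with exact 95% counting intervals as bars. The NT seedling library has the widest intervals, and only there does gene_66148 lie above 1.

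Other small heat shock proteins were listed in the same tables. Class II proteins, the other large cytosolic class, were represented by gene_24514 in the A9up table, whose log2 fold was 0.87 with DS10:A9 (0.77 to 0.97) and 8.60 with 35S:A9 (7.82 to 9.51). In DS10:A4a seeds 2 class II genes were listed, both as higher, and the more abundant, gene_49931, had 1054 FPKM in DS10:A4a seeds, against 169.4 FPKM in NT seeds (log2 fold 2.64). Of sHSPs of other cytosolic classes and of the reticulum, gene_28690 was the most abundant, with log2 folds of 1.33 for DS10:A9, 0.74 for DS10:A4a and 9.84 for 35S:A9, the last against 4 fragments in NT seedlings. All 5 organelle sHSP genes were listed as higher with DS10:A4a. Beside this count and that of class II, 46.0% of all genes listed with DS10:A4a were higher, and 49.0% of the abundant ones. Genes between the thresholds are in neither count. The most abundant organelle sHSP genes were gene_52291, with a log2 fold of 0.72 with DS10:A4a, and in the A9up table gene_25232, with 3.02 for DS10:A9 and 7.34 for 35S:A9.

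Among the listed genes of these 4 sHSP groups, class I made up 45.8% of the summed FPKM in DS10:A9 seeds, against 61.1% in NT seeds, with gene_25232 at 1133 FPKM in DS10:A9 seeds and 139.9 FPKM in NT seeds. The class I share was 69.2% in 35S:A9 seedlings, against 75.4% in NT seedlings, and 70.4% in DS10:A4a seeds, against 74.6% in NT seeds. In each comparison class I was the largest of the 4 groups in both libraries. The shares depend on which genes are listed, and gene_37733 and gene_79575 count in the DS10:A4a comparison alone. HSP20 family genes with no class in their description count in none of the 4 groups.

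With DS10:A4a, 46.0% of all listed genes were higher. Of HSP20 family genes with no class in their description 11 were listed there, 8 as higher and 3 as lower. The most abundant of them was gene_51010 (HSP18.0), with 3611 FPKM in DS10:A4a seeds, against 1327 FPKM in NT seeds, and a log2 fold of 1.44, values close to those of gene_37733. In the A9up table this group had its highest level in gene_8593, at 2.20 FPKM in DS10:A9 seeds, against 1.01 FPKM in NT seeds.

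ATP-dependent chaperones and HSFs were also listed in the A4a tables, where 46.0% of all genes are higher. Of the listed HSP70 genes 12 were higher, 7 of them with an interval above 0, and 5 lower, 2 of them with an interval below 0, with gene_59112 the most abundant (log2 fold 0.81), and of the HSP90 genes 3 were higher and 2 lower, all with intervals apart from 0, with gene_72360 the most abundant (0.94). Of the HSP101 genes, whose proteins work with sHSPs in refolding, 3 were listed as higher and 1 as lower, and only gene_16418, at 1.07, had an interval apart from 0. Of 20 HSF genes 14 were listed as higher, 10 of them with an interval above 0, and 6 as lower, 0 of them with an interval below 0. The most abundant HSF, gene_22763, was at 0.86. For class I it was 7 as higher, all with an interval above 0, and 0 as lower, with a median of 1.11. The median over all listed genes with a fold was -0.57. Genes between the thresholds are not listed and more genes are listed as lower than as higher, so this value lies near the lower threshold. It is therefore no measure of a typical fold, and class I is not set apart by it. Differences between these groups were not tested.

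In the A9up table these groups were small. HSP101 had 3 genes, led by gene_16507 at 0.69 for DS10:A9 and 1.60 for 35S:A9 on the log2 scale. The most abundant HSF, gene_84967, was at 0.64 in 35S:A9 seedlings, with 16.8 FPKM in 35S:A9 seedlings, against 10.8 FPKM in NT seedlings. HSP70 was represented by gene_27962, at most 2.57 FPKM, and HSP90 by gene_36751, at 0.97 on the log2 scale for DS10:A9, and with 1.73 FPKM in 35S:A9 seedlings, against a listing at 0 in NT seedlings.

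Profiles over the 6 libraries were compared with the mean of gene_79900 and gene_2804, the 2 members listed in all of them. The 162 genes compared were likewise listed in all, reached at least 10 FPKM somewhere, lay outside class I and had a described product. Genes without a described product were left out. The most alike genes of another description were gene_70529 and gene_74413, both of BAG family molecular chaperone regulator 6, with Pearson r of 0.995 and 0.969 on log2(FPKM + 1). Between them stood gene_28690 at 0.970, followed by the mitochondrial 26.5 kDa sHSP gene_81743 at 0.930 and the flavanone 3-hydroxylase gene_819, of flavonoid synthesis, at 0.915. The closest, gene_70529, had 351.9 FPKM in DS10:A9 seeds, against 183.7 FPKM in NT seeds, and 512.0 FPKM in 35S:A9 seedlings, against 18.3 FPKM in NT seedlings. Both gene_79900 and gene_2804 were lowest in the NT seedling library, r was not computed without it, and it is given as a description only.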

How the data were processed

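RNA was sequenced as paired-end reads on an Illumina HiSeq in 6 pooled libraries. The FPKM values were made by the authors and deposited in tables of selected genes. The submitters' processing notes name HISAT (0.1.6), StringTie (1.04), Bowtie2 (2.2.5) and RSEM (1.2.12). Per the study's methods, reads were mapped to the tobacco assembly Ntab-BX. An FPKM of 0 is deposited as 0.01 and was read as 0. The deposited fold and p-value columns hold the authors' own comparisons and were not used. The smaller deposited tables repeat 7854 rows of the larger ones and were left out. The labels do not say which NT seed library belongs to which comparison, so each was kept with the table it stands in.

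Log2 ratios of FPKM, without a pseudocount, were taken in pandas 2.3.3 and NumPy 2.4.6 under Python 3.11.15, and intervals in SciPy 1.17.1. Low FPKM values moved in steps of 1 fragment, from which depth and an offset on the transcript length (65 bases in seeds, 45 in seedlings) were fitted. With these, 87.2% to 95.4% of low values came out whole within 0.1 fragment. The recovery was tested on simulated data. No p-value is given, as every comparison set 1 library against 1. The 2 NT seed libraries were not pooled.

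Named genes were the 6 genes, every other class I gene, the gene with the highest mean FPKM of each other list for each kind of table, and the 5 described genes with the most alike profile. Members and lists were chosen with earlier results of these data known. None of the 6 genes matched the tobacco RefSeq gene table (assembly ASM71507v2) by accession, and no coordinates or sequences were used.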

Additional observations from a re-analysis of the deposited data

How the results depend on the processing

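Pseudocounts of 0.1 and 1, no length offset, the other NT seed library or the mean of both, filters on low FPKM and other thresholds gave 93 alternative values. Of these 92 kept the direction and size of the values reported, within their counting interval or within 1.5 times for a count, and none changed sign. The exception was the number of class I genes listed as higher with DS10:A4a, which was 7 at the deposited thresholds and 4 at thresholds of 1 and -1. Many of the alternatives could not have changed a sign. A pseudocount keeps the sign of a single log2 ratio, and leaving out the length offset changes only its interval. The count of 92 therefore says little about how firm the values are. With a pseudocount of 1 the median log2 fold of the 4 class I genes of the A9up table in 35S:A9 seedlings was 6.42, against 6.61 without. The NT seedling levels of gene_26623 and gene_2804, at 16 and 29 fragments, limit the precision of the seedling folds and of the basal ratios. Pooling removed the spread between plants and lines from every value. No paired analysis was possible because each condition of a comparison has 1 library.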
